A study of Mus musculus with 27 samples.

Results

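Interferon-signature monocytes were taken here as the cells that carried much RNA of 4 antiviral genes, Ifit1, Ifit2, Ifit3 and Rsad2, among the monocytes of MC38 tumours. The choice was made cell by cell from the UMI counts. A kept cell had at least 1000 UMIs, at least 500 genes and at most 10% mitochondrial UMIs. It then had to show at least 1 UMI of Csf1r, the receptor for colony stimulating factor on monocytes and macrophages. It could hold no more than 1 UMI of the T cell genes Cd3d, Cd3e and Cd3g together, 1 of the NK cell genes Ncr1 and Klrb1c together and 1 of Arg1, and none of Mgl2. The complement genes C1qa, C1qb and C1qc had to stay below 20 UMIs per 10000, and the MHC class II genes H2-Aa, H2-Ab1 and H2-Eb1 below 50 per 10000. These gates left 823 WT and 587 KO monocytes, and 177 WT and 131 KO cells (308 of 20299 kept cells) reached the level of 10 UMIs per 10000 of the 4 rule genes.

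The single-cell libraries were made from CD45 immune cells of MC38 tumours, where MC38 is a mouse colon adenocarcinoma line. WT mice carried the floxed Ogt gene (Ogt-flox), and KO mice carried it together with Lyz2-cre, which drives cre recombinase from the Lyz2 locus in monocytes, macrophages and neutrophils. Ogt encodes the enzyme that attaches the sugar O-GlcNAc to proteins. KO mice therefore differ from WT by the cre allele as well as by the Ogt deletion, and the design cannot tell these apart. The labels list 2 single-cell samples per genotype and 1 matrix per genotype was at hand, so that there was no replicate and no test. Whether the second sample is pooled into the matrix is not stated. The age and number of the animals are not stated either. RNA-seq of tumour-associated macrophages, with 3 WT and 3 KO libraries, is used beside the cells as a separate measurement in a related cell type.

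Type I interferons bind a receptor on nearly all cells and switch on antiviral genes through a DNA element called the ISRE. Ifit1, Ifit2 and Ifit3 encode proteins that bind viral RNA or act in its sensing, Rsad2 encodes viperin, which makes a chain-terminating nucleotide, and Cxcl11 encodes a ligand of the T cell receptor CXCR3. Interferon gamma, made by T and NK cells, acts more through a different element, the GAS, and induces the guanylate-binding proteins (GBP), the immunity-related GTPases (IRG) and Cxcl9 more strongly. Monocytes with this signature are a known state of blood-derived cells in tumours.

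The promoters of 3 rule genes and of Gbp2, a guanylate-binding protein whose RNA was higher in KO, are shown because they hold matches to the ISRE. The letters are the 250 bases before the transcription start in RefSeq (build GRCm38.p6), 5′ to 3′ on the strand of the gene, with each match to GAAANNGAAA or its reverse complement TTTCNNTTTC in capitals.
Ifit1 (chr19:34640639-34640888, plus strand): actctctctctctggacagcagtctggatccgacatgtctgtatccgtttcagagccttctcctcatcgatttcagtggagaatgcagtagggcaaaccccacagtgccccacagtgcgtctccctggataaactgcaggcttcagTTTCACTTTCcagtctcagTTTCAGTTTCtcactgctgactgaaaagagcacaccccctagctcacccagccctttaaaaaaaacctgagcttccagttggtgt
Ifit3 (chr19:34583279-34583528, plus strand): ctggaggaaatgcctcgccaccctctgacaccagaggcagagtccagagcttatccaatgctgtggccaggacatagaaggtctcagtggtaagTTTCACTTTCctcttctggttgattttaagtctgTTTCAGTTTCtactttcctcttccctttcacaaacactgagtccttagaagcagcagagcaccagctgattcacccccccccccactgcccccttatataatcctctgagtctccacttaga
Rsad2 (chr12:26456453-26456702, minus strand): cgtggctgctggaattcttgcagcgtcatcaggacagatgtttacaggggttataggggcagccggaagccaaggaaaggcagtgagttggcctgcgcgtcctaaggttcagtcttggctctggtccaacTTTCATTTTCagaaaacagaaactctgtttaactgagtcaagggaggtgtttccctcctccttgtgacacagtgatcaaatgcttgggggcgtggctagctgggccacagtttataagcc
Gbp2 (chr3:142620413-142620662, plus strand): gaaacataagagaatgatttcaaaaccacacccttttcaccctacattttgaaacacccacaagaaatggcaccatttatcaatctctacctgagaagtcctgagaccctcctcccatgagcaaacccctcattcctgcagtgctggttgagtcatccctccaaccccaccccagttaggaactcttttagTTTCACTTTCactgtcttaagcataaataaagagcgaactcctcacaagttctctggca
Of 27025 genes in the table, 936 (3.46%) had such a match in this window. The table held 4 of the 5 marker genes, and 3 of these had a match (Ifit1, Ifit3 and Rsad2), while the starts listed for Ifit2 had none. Among 60 other type I interferon-stimulated genes 47 were in the table and 19 of these (40.4%) had a match. Among 15 GBP and IRG genes 10 were in the table and 9 had one. The GAS motif, searched as TTCNNNGAA, which is its own reverse complement, was present for 8.13% of all genes, for 7 of the 47 type I genes (14.9%) and for 6 of the 10 GBP and IRG genes. Of 32851 promoter sequences 109 held both motifs, and in 18 of these 109 the matches overlapped. A match describes the letters and shows no binding.

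The interferon-signature cells took a similar share of the monocytes in both matrices. They were 21.5% of gated monocytes in WT (exact 95% binomial interval 18.7 to 24.5) and 22.3% in KO (19.0 to 25.9), so that no difference was detectable at this number of cells. With each cell thinned to 2000 UMIs the order was the reverse, 26.6% (22.6 to 31.0) in WT and 22.8% (18.3 to 27.9) in KO, again with overlapping intervals. Of all kept cells they were 1.73% in WT (1.49 to 2.01) and 1.30% in KO (1.09 to 1.54), since the KO matrix held fewer gated monocytes. All intervals here cover counting error only. They do not include variation between mice.

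The 4 rule genes chose the cells, so their levels describe the rule. In members they summed to 41.8 UMIs per 10000 in WT and 35.6 in KO, against 1.71 and 1.83 in monocytes that passed all other gates (called interferon-low, 646 WT and 456 KO cells). T cells, a cell type outside the gate, held 2.92 and 2.24 per 10000 at median depths of 6135 and 6412.5 UMIs, and empty droplets of 1 to 100 UMIs held 4.32 and 3.96. Of the T cells, 8.52% in WT (7.63 to 9.49) and 5.85% in KO (5.16 to 6.60) also reached 10 per 10000. So did 13.2% in WT (10.9 to 15.7) and 10.8% in KO (8.67 to 13.2) of macrophages with C1q at 20 per 10000 or more. All 4 rule genes were found in 82 of the 177 WT cells and 50 of the 131 KO cells. Just above the threshold, at 10 to 12 per 10000, were 20 WT and 15 KO cells (medians 11.1 and 10.8). Just below it, at 8 to 10, were 34 and 17 cells (medians 8.97 and 9.50). The threshold thus cut a continuous range, and the members are the upper end of that range.

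Members held 1030144 UMIs in WT and 759119 in KO, and the median cell had 5808 and 5648. The matrices as a whole held 85755359 and 85418469 UMIs. Of the kept cells 25 shared a barcode between the matrices, and no barcode was a member in both. Scrublet, a doublet caller, marked 4.91% of WT and 3.16% of KO kept cells, of which 4 and 1 were members, and they were kept. Csf1r was seen as a single UMI in 104 WT (58.8%) and 85 KO (64.9%) members, so the monocyte gate often rests on 1 molecule. The monocyte genes Ly6c2 and Plac8 were found in 74.0% and 92.7% of WT members and in 70.2% and 89.3% of KO members. In T cells the share with a Ly6c2 UMI was 47.1% in WT and 39.9% in KO. Ly6c2 without the non-classical genes Ace or Treml4 was found in 49.7% of WT and 55.7% of KO members, and Ace or Treml4 without Ly6c2 in 9.60% and 5.34%. Ly6c2 together with Ace or Treml4 was found in 24.3% and 14.5%, and neither kind of marker in 16.4% and 24.4%. The mix of markers thus differed between WT and KO members. Its part in the KO over WT ratios below was not tested.

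Other type I interferon-stimulated genes were higher in cells with more of the rule genes, in both matrices. Both sums share the depth of the cell, and the order is a description. The summed level of the 60 genes had a median of 130 UMIs per 10000 in the 374 WT monocytes with no rule-gene UMI, 289 in those at 10 to 20, 348 at 20 to 50 and 486 at 50 or more. The KO medians in the same ranges were 146, 276, 333 and 468. Cxcl10, which encodes another CXCR3 ligand, had medians of 1.79, 8.98 and 43.5 per 10000 over the 3 upper WT ranges and 3.12, 9.93 and 41.5 over the KO ranges.

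**Figure D1:**
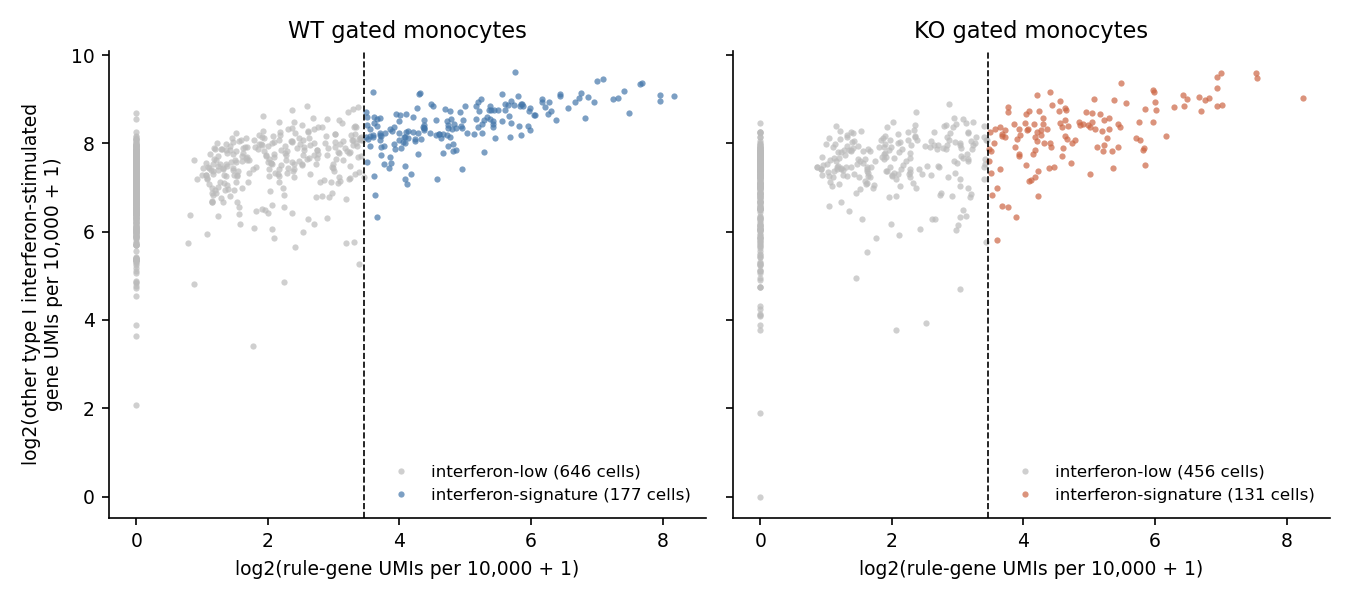
Each point is 1 gated monocyte, WT on the left and KO on the right, with the summed level of the 4 rule genes on the x axis and of 60 other type I interferon-stimulated genes on the y axis, both as log2 of UMIs per 10000 plus 1. The dashed line is the threshold of 10 per 10000, and the coloured cells to its right (177 WT and 131 KO) lie in the upper part of the range of the grey cells.

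Set against interferon-low monocytes, members carried more RNA of a compact antiviral group. The cells were chosen by interferon genes, so this is a description of what travels with them. Of 2819 genes with at least 100 UMIs over both matrices' members and at least 50 CPM in 1 of them (CPM is UMIs summed over cells per 1000000 UMIs), 99 (3.51%) were at least 2-fold higher in members in both matrices. Of 58 such type I genes 37 were, as were 6 of 13 GBP and IRG genes. By the lower of the 2 ratios, the genes most like the rule genes were Ifit3b and Ifit1bl1, relatives of the rule genes, Cmpk2, a mitochondrial nucleotide kinase and neighbour of Rsad2, Mx1, an antiviral GTPase, the helicase Ddx60, Cxcl11, Isg15, a ubiquitin-like modifier, Herc6, Ifi208 and Usp18, which removes Isg15. Ifit3b stood at 183 CPM in WT members against 5.70 in interferon-low cells, and at 140 against 9.44 in KO. Isg15 stood at 3571 against 764 in WT and at 3345 against 697 in KO. Ifit3b and Ifit1bl1 have near-identical copies, so the division of their UMIs among copies is uncertain.

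**Figure D2:**
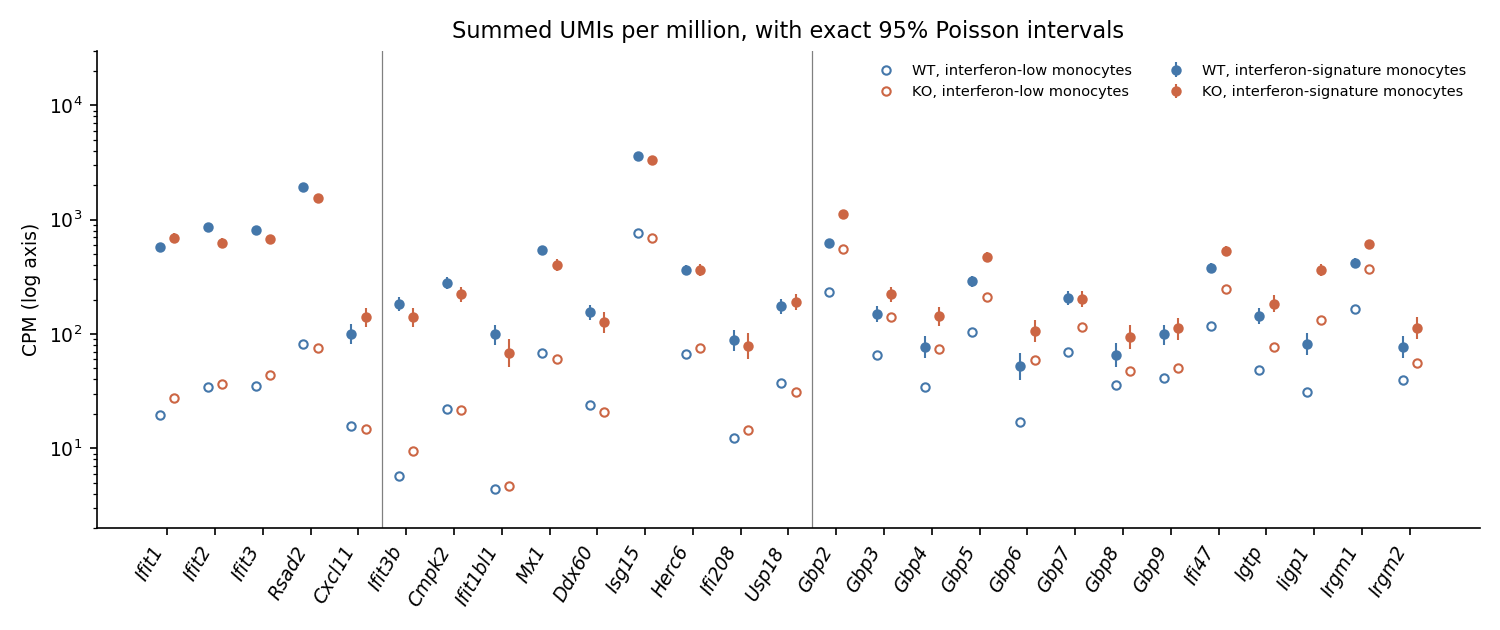
CPM on a log axis for the 5 markers, the 9 other genes most like them and 13 GBP and IRG genes, in interferon-signature monocytes (filled, with exact 95% Poisson intervals) and interferon-low monocytes (open) of WT and KO. The markers and the genes most like them stand far above the open points in both genotypes, and Gbp2 and Iigp1 stand higher in KO in both kinds of cell.

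Between the genotypes, the type I genes of members chosen at the same threshold stood close together. These genes were higher in cells with more of the rule genes, so their closeness is partly set by the choice of cells. With a pseudocount of 5 CPM in the log2 ratio, 163 of the 2819 genes (5.78%) were at least 1.5-fold higher in KO and 124 (4.4%) at least 1.5-fold lower. Of the 58 eligible type I genes none was past 1.5-fold in either direction, 16 lay above 0 and 42 below. Of all 2819 eligible genes 1258 lay above 0 and 1561 below. The median log2 ratio of the type I genes was -0.14, against -0.03 over all eligible genes. The extremes were Bst2 (-0.58), which encodes tetherin, and Samhd1 (0.48), a nucleotide hydrolase. Without the pseudocount Bst2 was 1.501-fold lower in KO. Oas1g and Ifi44 fell below the limits for UMIs or CPM.

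The levels of the 4 rule genes in members are values that the choice of cells used, so they are given as a description and nothing is read from their order between genotypes. Rsad2 stood at 1922 CPM in WT and 1560 in KO, Ifit2 at 871 and 628, Ifit3 at 817 and 673 and Ifit1 at 571 and 697. Cxcl11, which the rule did not use, was at 101 CPM (exact 95% Poisson interval 82.5 to 122) in WT and 140 (114 to 169) in KO. Its log2 ratio was 0.45. These intervals overlapped, while the KO over WT ratio of 1.38 had an exact 95% interval of 1.05 to 1.83. All intervals of CPM and of ratios treat each UMI as independent. They leave out variation between cells as well as between mice, and are too narrow where few cells hold a gene.

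The GBP and IRG genes, GTPases that act on membranes of intracellular microbes, stood higher in KO members. Of 13 eligible genes 5 were at least 1.5-fold higher and none lower, where 5.78% and 4.4% of all genes were. Their median was 0.54. Iigp1 had 82.5 CPM (65.9 to 102) in WT and 366 (324 to 412) in KO, 4.44-fold higher (exact 95% interval 3.47 to 5.73), and was found in 14.1% and 37.4% of the cells. Gbp2 had 629 CPM (582 to 679) and 1120 (1046 to 1198), or 0.83. Gbp6, Gbp4 and Gbp5 followed with 0.96, 0.83 and 0.70, and Gbp7 was at -0.04. Gbp4 was at -0.038 when each cell was thinned to 2000 UMIs. Several GBP and IRG genes lie in clusters of near-identical copies, which makes the split between copies uncertain.

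The same list was also higher in KO in the neighbouring cells. Of 12 eligible GBP and IRG genes in interferon-low monocytes 10 were at least 1.5-fold higher and none lower, with a median of 1.02, where 2.76% of 3375 genes were that much higher and 1.13% lower. In macrophages with C1q at 20 per 10000 or more (775 WT and 760 KO cells), 9 of 11 were higher and none lower, with a median of 0.76, where 4.51% of 3413 genes were higher and 2.14% lower. The type I genes had medians of 0.11 in interferon-low monocytes (47 genes) and -0.11 in the macrophages (41 genes). Iigp1 had log2 ratios of 2.08, 1.92 and 1.51 in members, interferon-low monocytes and macrophages. The 3 kinds of cell come from the same 2 matrices, so they are not separate replicates, and whether the ratio differs between them was not tested.

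**Figure D3:**
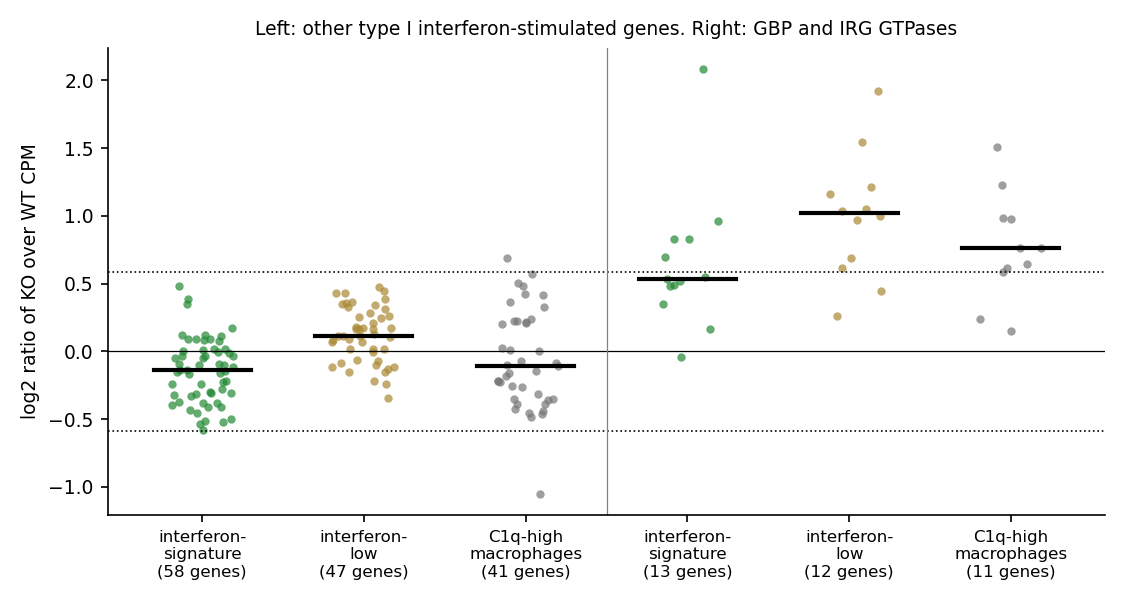
Each point is 1 gene, placed by its log2 ratio of KO over WT CPM in 3 kinds of cell, with type I interferon-stimulated genes on the left and GBP and IRG genes on the right. Thick bars are medians (-0.14, 0.11 and -0.11 on the left, 0.54, 1.02 and 0.76 on the right), and dotted lines mark 1.5-fold.

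Eligible genes around interferon signalling showed 3 of 18 past 1.5-fold upward and none downward, beside 5.78% and 4.4% of all eligible genes. Ifnb1, a type I interferon gene, had too few UMIs to be eligible and is outside this count. It had 44 UMIs in WT members and 0 in KO, a ratio of KO over WT of 0 (exact 95% interval 0 to 0.119). The interval is too narrow if few cells held these UMIs, and whether the difference holds between mice was not tested. Irf1, a transcription factor induced by interferon gamma, stood at 639 CPM (591 to 689) in WT and 1070 (997 to 1146) in KO, or 0.74. Irf8, a factor of monocyte development, was at 325 and 528 (0.69), and Socs1, an inhibitor of the receptor kinases, at 239 and 445 (0.89). Irf8 was at -0.27 in cells thinned to 2000 UMIs. Irf7, which amplifies the type I response, was at 587 and 519 (-0.18). Among the nucleic acid sensors 1 of 11 genes was past 1.5-fold downward (4.4% of all genes) and none upward. It was Rigi, an RNA sensor, at 242 CPM in WT and 148 in KO (-0.69), and Ifih1 was at 418 and 368 (-0.18).

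Among the CXCR3 ligands, Cxcl9 was higher in KO members and Cxcl10 was not. Cxcl9 stood at 135 CPM (113 to 159) in WT and 470 (423 to 522) in KO, 3.49-fold higher (2.86 to 4.27), and 13.6% and 31.3% of the cells had it. Cxcl10 stood at 3065 (2959 to 3173) and 3038 (2915 to 3164), a log2 ratio of -0.01. In interferon-low monocytes Cxcl9 differed by 0.38 and Cxcl10 by 0.69. Of 19 eligible genes of MHC class I presentation 3 were past 1.5-fold upward and none downward (5.78% and 4.4% of all genes), with a median of 0.22 against -0.03 over all genes. They were H2-Q6 (1.13), H2-Q7 (1.17) and Nlrc5 (0.60), the activator of this group. H2-K1 was at 0.36 and B2m at 0.22. H2-Q6 and H2-Q7 are near-identical copies, so their values are uncertain. Cd274, which encodes PD-L1, was at 903 CPM in WT and 1453 in KO (0.68), and at 0.29 without cells with any S100a8 or S100a9 UMI, which are described next.

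A part of the members carried neutrophil genes, and more so in KO. Cells with at least 2 UMIs of Cxcr2, Retnlg and Ly6g numbered 9 in WT (5.08%, 2.35 to 9.43) and 20 in KO (15.3%, 9.58 to 22.6). Cells with any UMI of S100a8 or S100a9, alarmin genes of neutrophils and classical monocytes, were 32 (18.1%, 12.7 to 24.6) and 44 (33.6%, 25.6 to 42.4). In interferon-low monocytes the first share was 3.10% in WT and 3.07% in KO, and the second 17.3% and 23.7%. Empty droplets held 7.89 and 8.77 UMIs of S100a8 and S100a9 per 10000. S100a9 was found in 6.69% of WT and 7.31% of KO T cells, so a single UMI need not come from the cell itself. The 8 neutrophil markers summed to 19.7 per 10000 in WT members and 62.7 in KO members. Their median per cell was 2.82 and 3.47, and their highest cell 618 and 1169. Ly6g was at 0 in KO members. Of the other marker lists tried, T, NK, B, dendritic, epithelial, stromal and erythroid genes each summed to below 1 per 10000 in members of both matrices. The gates had capped Cd3d, Cd3e, Cd3g, Ncr1 and Klrb1c, so low T and NK sums were partly set in advance. The plasmacytoid dendritic list was summed without Bst2, a type I gene named above, which had 872 UMIs in WT members and 428 in KO.

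Of the 10 largest ratios upward in KO, 7 lay in these cells. S100a9 stood at 843 CPM in WT and 3540 in KO, and S100a8 at 490 and 1773, both genes by which the cells were picked out. The others were Cstdc4 (4.48), Asprv1 (2.35), the chemokine Ccl3 (2.04), Hcar2 (1.97), a receptor for hydroxybutyrate and niacin, and Slc7a11 (1.75), a cystine transporter. Without cells with any S100a8 or S100a9 UMI they were at 0.00, -0.62, -0.20, -0.37 and 0.08. Cxcl2, a neutrophil attractant, went from 0.92 to -0.92, and Tnf from 0.76 to -0.29. In KO 85.1% of the Cxcl2 UMIs lay in the S100a8 or S100a9 cells, which held 31.7% of all UMIs of KO members. In the same setting the median of the type I genes was -0.08 and that of the GBP and IRG genes 0.63, and 122 genes were past 1.5-fold upward and 85 downward. Leaving out the cells with neutrophil markers together with 4 WT members that carried markers of another cell type gave 119 and 83.

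The other 3 of the 10 largest ratios upward were as large or larger without those cells. They were Lyz1, Iigp1 and Cxcl9, at 6.03, 2.31 and 2.32 without them. Lyz1, a lysozyme gene next to Lyz2, had 3 UMIs in WT members and 282 in KO, a ratio of 128 (exact 95% interval 43.2 to 622), and 9.92% of KO members had it. Lyz2, the gene whose locus carries cre, stood at 6106 CPM (5956 to 6259) in WT and 9.22 (3.71 to 19.0) in KO. This matches the labels. Lyz1 and Lyz2 are near-identical copies, so reads may be divided between them unevenly.

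**Figure D4:**
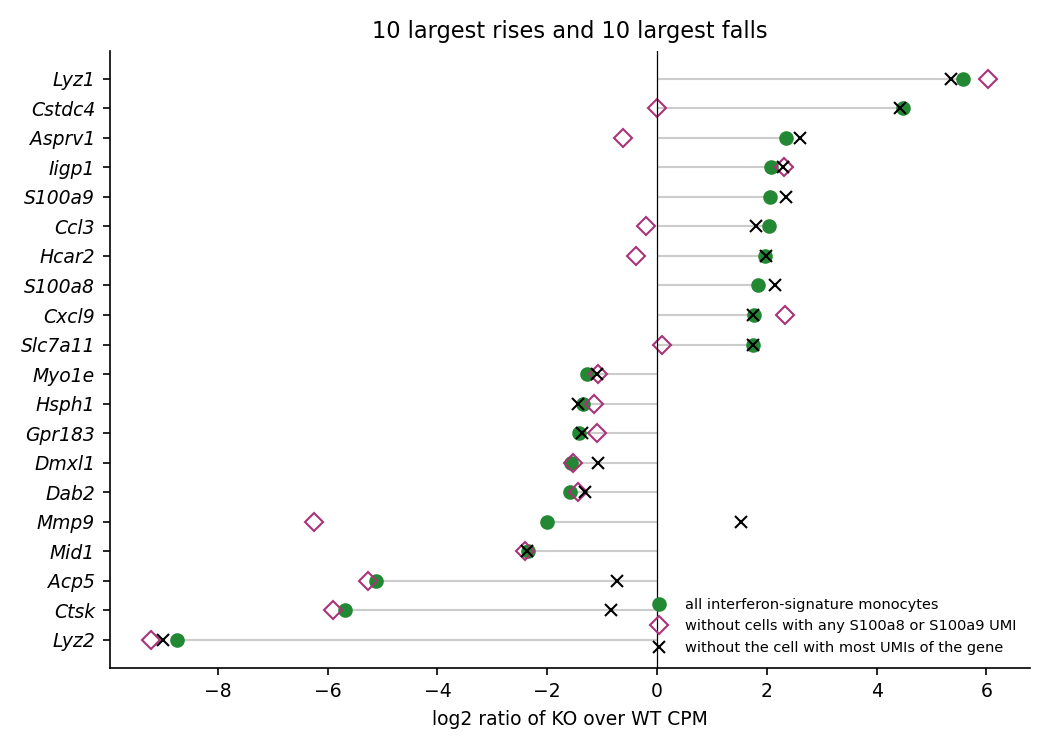
Log2 ratio of KO over WT CPM (5 CPM pseudocount) for the 10 genes with the largest ratios upward and the 10 with the largest downward among eligible genes, in all members (circles), without cells with any S100a8 or S100a9 UMI (diamonds, not drawn for these 2 genes) and without the cell with most UMIs of the gene in each matrix (crosses). Ccl3, Hcar2, Asprv1, Cstdc4 and Slc7a11 move to near or below 0 among the diamonds, and Ctsk, Acp5 and Mmp9 lose most of their ratio or turn without 1 cell.

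Among the 10 largest ratios downward, 3 were set by 1 WT cell. It held 98.5% of the Ctsk UMIs of WT members, and single WT cells held 97.2% of Acp5 and 93.7% of Mmp9. Ctsk and Acp5 encode enzymes of bone-resorbing osteoclasts and some macrophages, and Mmp9 a matrix protease. Mmp9 was at -2.00 with all cells and at 1.69 without the cell with most Ctsk UMIs, while Ctsk went from 260 UMIs in WT and none in KO to a log2 ratio of -0.84, and Acp5 from -5.12 to -0.54. Mid1, which encodes a ubiquitin ligase on microtubules, was spread over 27.7% of WT cells and stood at 87.4 CPM (70.2 to 107) in WT and 13.2 (6.32 to 24.2) in KO. Gpr183, a receptor for oxysterols that guides cell migration, was at 143 CPM (121 to 168) and 50.1 (35.4 to 68.7). Hsph1, a heat shock protein, was at 270 (239 to 304) and 103 (81.2 to 128). Dab2 (-1.58), Dmxl1 (-1.57) and Myo1e (-1.28) had 31.6%, 36.6% and 33.6% of their WT UMIs in 1 cell, and were at -1.32, -1.07 and -1.09 without the top cell of each matrix.

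The stress and immediate early genes leaned downward in KO members. Of 18 eligible genes 5 were at least 1.5-fold lower and none higher (4.4% and 5.78% of all genes), with a median of -0.17 against -0.03 over all genes. In C1q-high macrophages 9 of 18 were that much lower and none higher (2.14% and 4.51% of all genes), with a median of -0.58. In interferon-low monocytes 2 of 18 were lower and none higher (1.13% and 2.76%), with a median of -0.06. In members Dnajb1, a chaperone partner, stood at 273 CPM in WT and 112 in KO (-1.25). Hspa1b was at -0.82, Hspa1a at -0.62, Hsp90aa1 at -0.68 and Fos at -0.67. Hspa1a and Hspa1b are near-identical copies. Nr4a1, a nuclear receptor needed for non-classical monocytes, was at 759 CPM (707 to 814) and 402 (358 to 449), or -0.91. This gene was the only one of 6 eligible non-classical genes past 1.5-fold, but all 6 lay below 0 (median -0.10). Others had too few UMIs to be eligible. Among these, Ace had 48 UMIs in WT and 13 in KO, a ratio of 0.37 (exact 95% interval 0.18 to 0.69). Treml4 was at 0.79 (0.48 to 1.27). Cx3cr1 and Spn stood the other way, at 1.25 (0.76 to 2.04) and 1.26 (0.72 to 2.21). Of 8 eligible cholesterol synthesis genes 3 were past 1.5-fold downward, against the same 4.4% of all genes: Hmgcs1 (-0.62), Idi1 (-0.60) and Cyp51 (-0.60).

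Classical monocyte genes went both ways, with 3 of 24 past 1.5-fold upward and 3 downward, where 5.78% and 4.4% of all genes were. Ccr2, the receptor that brings monocytes out of the marrow, stood at 216 CPM (189 to 247) in WT and 136 (111 to 165) in KO (-0.65). Vcan, a matrix proteoglycan, was at 295 and 171 (-0.77). Without the S100a8 or S100a9 cells these were -0.27 and -0.55. Clec4e and Clec4d, C-type lectins, were higher at 1.03 and 0.85, and at 0.23 and -0.03 without those cells. Ndrg1, which is counted below among the genes of glycolysis and low oxygen, was higher at 1.47 and stayed at 1.44 without those cells.

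Chemokine and cytokine genes were also among those past 1.5-fold, where 5.78% of all eligible genes were higher and 4.4% lower. Of 16 eligible chemokine and receptor genes 6 were higher and 1 lower. Ccl5, a T cell attractant, was at 0.82 and at 1.14 without those cells, while Ccl4 went from 0.75 to -0.03 and Cxcl3 from 0.71 to -0.51. Of 15 cytokine and T cell regulator genes 4 were higher and none lower, among them Il1rn, the interleukin 1 receptor antagonist (0.85, and 0.50 without those cells), and the death receptor gene Fas (0.78 and 0.73). Fas was at -0.51 in cells thinned to 2000 UMIs. Of 17 macrophage genes 2 were higher, Spp1, which encodes osteopontin (1.46 and 0.36), and the protease gene Ctsd (0.65 and 0.11), and 2 lower, the lipid carrier genes Apoe (-0.66 and -0.31) and Fabp5 (-0.62 and -0.31). Egr1 was past 1.5-fold among 8 genes of EGR factors and corepressors (0.69 and -0.38), and the survival gene Bcl2l1 among 14 of cell death (1.23 and 0.19). Ndrg1 was the only one of 20 genes of glycolysis and low oxygen, and none was past 1.5-fold among 3 O-GlcNAc and 3 cell cycle genes that were eligible.

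The deleted gene and the factor named in the study's title were sparse in members. Ogt had 55 UMIs in WT and 33 in KO, or 53.4 CPM (40.2 to 69.5) and 43.5 (29.9 to 61.0). The ratio was 0.81 (0.51 to 1.28), so no difference was detectable at this depth. Which part of Ogt is deleted is not stated, and the UMIs may come from parts outside it. Egr2 had 53 and 28 UMIs, 51.5 CPM (38.5 to 67.3) and 36.9 (24.5 to 53.3), with overlapping intervals. Cebpb, a myeloid transcription factor, stood at 4681 CPM (4550 to 4815) in WT and 4662 (4510 to 4818) in KO.

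The bulk RNA of tumour-associated macrophages gave replicated values for the same genes in another cell type. The libraries held 7032540 to 32406170 counts. EdgeR's quasi-likelihood test with Benjamini-Hochberg adjustment called 2432 of 12939 genes higher in KO (18.8%) and 2442 lower (18.9%). The labels do not say that the libraries came from separate animals, so its p-values measure the spread between these libraries. In bulk RNA, fewer cells of a type and less RNA per cell cannot be told apart.

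In these macrophages the markers changed little and in both directions. Ifit1 had 48.9, 50.6 and 60.02 CPM in WT and 40.9, 44.8 and 40.9 in KO, and fell by 0.33 on the log2 scale (SE 0.09, adjusted p = 0.0027). Rsad2 had 251, 241 and 242 CPM in WT and 199.95, 202 and 206 in KO, and fell by 0.27 (SE 0.04, adjusted p = 4.1e-08). Ifit2 had 148, 140 and 143 CPM in WT and 167, 165 and 161 in KO, and rose by 0.19 (SE 0.05, adjusted p = 0.0010). The groups did not overlap for these 3 of the 5 markers, nor for 46.5% of all genes tested, so the count is near the background. Ifit3 and Cxcl11 differed by 0.05 and -0.18, with overlapping libraries (adjusted p = 0.53 and adjusted p = 0.42).

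Of the 60 type I genes 26 were called higher and 8 lower in the macrophages (18.8% and 18.9% of all genes), with a median of 0.12 against -0.00 over all genes. Isg15 had 347, 352 and 325 CPM in WT and 249, 245 and 248 in KO, and fell by 0.47. All 15 GBP and IRG genes were called higher, with a median of 0.63. Iigp1 had 97.2, 94.4 and 85.6 CPM in WT and 197, 203 and 201 in KO. It rose by 1.11 (SE 0.05, adjusted p = 2.8e-29). Irf1 had 539, 560 and 556 CPM in WT and 807, 765 and 801 in KO, a rise of 0.52. Cxcl9, 3.49-fold apart in the members, had 476, 484 and 496 CPM in WT and 511, 524 and 531 in KO, a rise of 0.10 (SE 0.03, adjusted p = 0.0030). The members' ratio and the bulk ratio come from different cells and were not tested against each other.

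Cebpb stood apart between the genotypes in the macrophages and not in the members. The macrophage libraries held 712, 773 and 719 CPM in WT and 148, 172 and 134 in KO, a log2 fold change of -2.28 (SE 0.04, adjusted p = 5.2e-54), while the members' log2 ratio was -0.01. The C1q-high macrophages of the single-cell matrices had a ratio of -0.33. Egr2 had 268, 255 and 273 CPM in WT and 138, 155 and 135 in KO (-0.90), and Ogt 61.0, 58.7 and 49.2 and 31.96, 39.1 and 33.0 (-0.72). Gpr183 fell in the macrophages as well, by 1.05, whereas Mid1 rose by 0.53 from 7.44 CPM, and Ndrg1 fell by 0.56. The call for Mid1 was lost without WT replicate 3 (adjusted p = 0.104) or without KO replicate 3 (adjusted p = 0.0819). Lyz1 fell by 1.47 in the macrophages, opposite to the members. These counts leave out reads that map to more than 1 place.

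**Figure D5:**
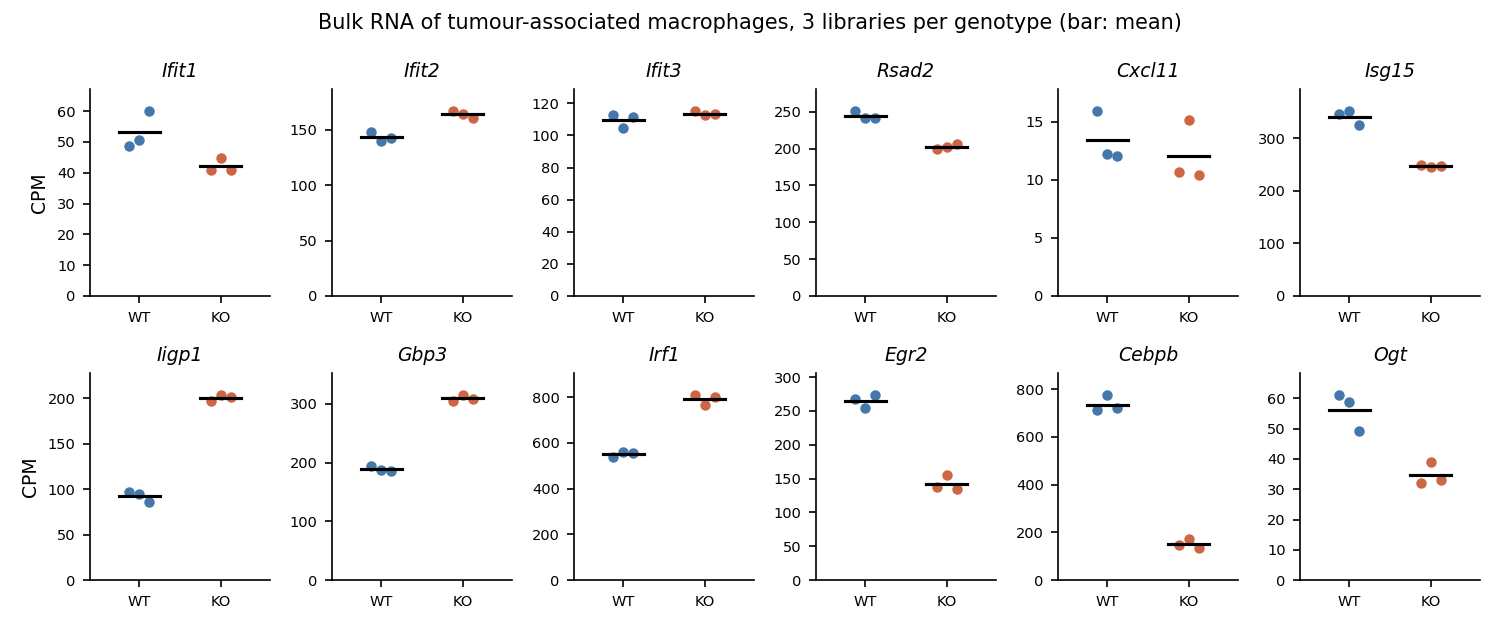
CPM of 12 genes in the 3 WT and 3 KO macrophage libraries (points) with the mean of each genotype (bar), each panel from 0. The points of Ifit3 and Cxcl11 overlap between genotypes, those of Iigp1, Gbp3 and Irf1 stand higher in KO, and those of Isg15, Egr2, Cebpb and Ogt lower.

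The peak lists of the macrophages placed no EGR2 peak at the marker genes. None of the 5 had an EGR2 peak centre within 2000 bp of its start in either genotype, where 1.75% of 12939 genes had one in WT and 1.28% in KO. The nearest WT peak centres lay 79919 bp from Cxcl11, 254792 bp from Ifit1, 312132 bp from Ifit3, 344969 bp from Ifit2 and 551417 bp from Rsad2. In the KO list the nearest centres lay 15954 bp from Ifit2, 16883 bp from Ifit3, 74223 bp from Ifit1, 301155 bp from Cxcl11 and 316200 bp from Rsad2. Of the 60 type I genes 3 had a WT peak, Ifitm3, Oas2 and Rnf213, and none a KO peak. Of the 15 GBP and IRG genes 1 did, Irgm1. Open chromatin peaks of the merged list lay within 2000 bp of Ifit1 (1180 bp) and Ifit3 (1448 bp), of 7 of the 60 type I genes (11.7%) and of 11.8% of all genes. They also lay this near to 4 of the 15 GBP and IRG genes, Gbp6 (268 bp), Irgm1 (1248 bp), Igtp (1421 bp) and Irgm2 (1483 bp). The starts used for Igtp and Irgm2 nearly coincide (chr11:58199556 and chr11:58199618) and share 1 peak, so these 4 genes are not separate loci. These lists are 1 per genotype or 1 in all, so they have no replicate, and they come from macrophages.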

How the data were processed

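Single cells: the authors deposited UMI counts for every barcode, and the headers name Cell Ranger 8.0.1. Bulk RNA: the authors deposited raw read counts per gene from featureCounts 2.0.6 on GENCODE vM10, per the file headers, with both reads of a pair counted, no strand used and multi-mapped reads dropped. The deposited peak lists carry a score per peak, of which only positions were used. Submitters' notes give mm10 as the build. Aligner and peak caller: not given in the sources used here.

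UMIs were summed over the cells of each class and matrix and divided by their total (CPM). Log2 ratios used a pseudocount of 5 CPM. Genes with at least 100 UMIs over both matrices and 50 CPM in 1 were eligible, and 1.5-fold was the size named. Bulk counts were tested with edgeR 4.0.16 (filterByExpr, TMM, quasi-likelihood F-test, 2-sided), adjusted by Benjamini-Hochberg over all genes tested, and DESeq2 1.42.0 was an alternative. The counts tests were checked on simulated data. Scrublet ran in scanpy 1.11.5.

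The genes named are the 5 markers, Ogt, Lyz2, Egr2, Cebpb, the 10 largest ratios each way (without predicted genes, pseudogenes, receptor segments, mitochondrial, haemoglobin and Y-linked genes), the 10 genes most like the rule genes and, from each of 18 lists, up to 4 members with the highest CPM and those past 1.5-fold. Bst2, Ifih1 and other list members outside this rule were named after their values were seen. The members and lists were chosen with earlier results of these data known.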

Additional observations from a re-analysis of the deposited data

How the results depend on the processing

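Single-cell values have no replicate, so depth and cell number limit them, and no interval covers variation between mice. The intervals of CPM and of ratios do not cover variation between cells either. With the interferon threshold at 20 in place of 10 per 10000 UMIs, the share of kept cells was 1.04% in WT and 0.763% in KO, and that of gated monocytes 12.9% and 13.1%. At 5 per 10000 these were 2.58%, 1.97%, 32.1% and 33.9%. Cells thinned to 2000 UMIs gave 1.24% and 0.750% of kept cells and 26.6% and 22.8% of gated monocytes, the reverse of the order without thinning, with 80 genes past 1.5-fold upward and 59 downward, a type I median of -0.034, and Gbp4, Irf8 and Fas at -0.038, -0.27 and -0.51. Requiring a Ly6c2 UMI gave 1.28% and 0.912% of kept cells. Leaving out cells with any S100a8 or S100a9 UMI, chosen after seeing the data, gave 1.42% and 0.863%, and turned Asprv1 (-0.62), Ccl3 (-0.20), Hcar2 (-0.37), Cxcl2 (-0.92), Ccl4 (-0.034), Cxcl3 (-0.51), Tnf (-0.29), Clec4d (-0.033) and Egr1 (-0.38). Leaving out cells with neutrophil or other markers turned Cxcl3 (-0.28). Mmp9 turned without doublets (1.75), at 5% mitochondrial UMIs (1.69), with a Ly6c2 UMI (1.86), without the WT cell richest in Ctsk (1.69, chosen after seeing the data) and as a mean over cells (0.0037). The counts past the fold were 67 downward with a pseudocount of 20 CPM, 463 and 438 with a 30 UMI filter, and 43 and 17 at 2-fold. The cause was not tested. The other settings left the counts within 1.5 times and the shares inside their intervals.

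For bulk macrophages the same-numbered libraries did not pair (correlations of -0.00, 0.00 and 0.01), and the replicate block called 2338 genes higher and 2353 lower. DESeq2, no filter, read pairs and each library left out kept all bulk counts within 1.5 times, with 1981 to 2302 genes higher and 2010 to 2297 lower when a library was left out.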
